A study of Mus musculus with 6 samples.

Results

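The TNF receptor superfamily transcripts of regulatory T cells (Tregs) were followed in CD25+ cells recovered from recipients with or without MHC class II. The family members were Tnfrsf1a and Tnfrsf1b, which encode the TNF receptors TNFR1 and TNFR2, Tnfrsf4 (OX40), Tnfrsf9 (4-1BB), Tnfrsf18 (GITR), Cd27, Tnfrsf8 (CD30), Tnfrsf14 (HVEM), Tnfrsf25 (DR3) and Fas (CD95). They were chosen by gene symbol, and each of the 10 was represented by 1 array row, out of 19937 genes with a row of their own. All 10 passed the filter on low values, which left 15037 genes for testing.

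Both groups held C57BL/6 Tregs sorted as CD4+ TCRβ+ CD25+ cells, 5 days after total T cells of wild-type mice had been transferred into recipients lacking CD3ε and therefore T cells of their own. The MHC II-competent recipients carried the CD3ε deficiency alone, and the MHC II-deficient recipients were doubly deficient for CD3ε and MHC II, a host in which the labels describe the Tregs as without TCR contacts to MHC II. The labels give an age of 6 to 8 weeks, without saying whether it is that of donors or recipients, and peripheral lymph nodes and spleen as the tissue. There were 3 arrays per group, named here competent 1 to 3 and deficient 1 to 3. The labels call them biological replicates but do not say whether a replicate was 1 recipient or a pool. The tests therefore compare the groups against the spread among preparations, whatever each of them held. Each array gave 28101 log2 values after robust multi-array averaging (RMA), with a median between 6.11 and 6.25. Differences below are MHC II-deficient minus MHC II-competent on the log2 scale, tested with limma, and a gene passed when its p, adjusted by Benjamini-Hochberg over all 15037 genes, was under 0.05.

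Receptors of this family bind trimeric ligands of the TNF family and signal through cytoplasmic TRAF adaptors to NF-kappaB and MAP kinases, and those with a death domain can also recruit FADD or TRADD and caspase-8. On T cells several of them are costimulatory receptors that antigen receptor (TCR) stimulation induces. Tregs carry OX40, GITR, 4-1BB and TNFR2 at higher levels than resting conventional T cells, and signals through these receptors support Treg survival and expansion.

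In the cells from MHC II-deficient recipients 1 receptor transcript fell, that of TNFR2. Tnfrsf1b was 1.68-fold lower (log2 difference -0.75, SE 0.12, 3 arrays per group, adjusted p = 0.012). The OX40 and 4-1BB transcripts lay lower in every deficient array than in every competent array but did not pass, and the GITR transcript had means of 10.88 in the competent and 10.87 in the deficient group. Among the partner genes, the transcripts of CD30 ligand and Fas ligand rose, by 1.84-fold and 1.58-fold. Of the 10 receptors, 1 was past the threshold in the lower direction, where 2.03% of all tested genes were, and 0 in the higher direction, where 1.34% were. At an unadjusted p under 0.05, limma's test gave 3 lower and 0 higher receptors, beside 11% lower and 7.85% higher over all tested genes. The groups did not overlap for 4 receptors that lay lower (12.9% of tested genes) and for 1 that lay higher (11.4%), 5 in either direction (24.3%). The median difference over the 10 receptors was -0.01, beside 0.02 over all tested genes. The count of lower receptors was 0 without competent 2 or without deficient 1, and 3 without competent 3.

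Over all genes 507 were past the threshold (3.37%), 306 lower and 201 higher. Quantile normalization gave 230 lower and 230 higher, and median centring 297 lower and 127 higher. With 1 array left out the count was 249 (competent 1), 173 (competent 2), 159 (deficient 1), 213 (deficient 2), 320 (deficient 3) and 708 (competent 3, with 486 lower). The label of the sort was checked on 10 tested Treg and T cell markers. Their mean lay between 10.69 and 10.82 in the competent and between 10.59 and 10.62 in the deficient arrays, and Foxp3, the defining transcription factor of Tregs, between 9.68 and 9.88 over all 6 arrays. Of the 10 markers 9 had a negative difference, for 5 the deficient arrays were lower without overlap (12.9% of all tested genes) and 0 passed, and 3 were lower at an unadjusted p under 0.05 by limma (11% of all tested genes), namely Il2ra (-0.27), Ctla4 (-0.33) and Ikzf2 (-0.29). Most myeloid markers had a higher mean in the deficient group, though the list means of the arrays overlapped between the groups. Itgam (-0.43) and Cst3 (-0.28) went the other way. The groups did not overlap for 6 myeloid genes that lay higher and for these 2 (11.4% and 12.9% of all tested genes). The mean of the 20 tested myeloid genes ranged from 6.03 to 6.96 in the competent and from 6.87 to 7.79 in the deficient arrays. Of the 20, 18 had a positive difference, as had 54.0% of all tested genes. At an unadjusted p under 0.05 by limma, 15 were higher and 2 lower (7.85% and 11% of all tested genes). Past the threshold was 1, the macrophage gene Adgre1, in the higher direction (1.34% of all tested genes). The CD8 T and NK cell list also lay higher, with means from 7.18 to 7.31 in the competent and from 7.65 to 7.87 in the deficient arrays over its 8 tested genes. Of these 5 were higher and 1 lower at an unadjusted p under 0.05 by limma (7.85% and 11% of all tested genes). Klrd1 passed with a difference of 2.66, far above the list's median of 0.32, so it weighs most on the means. A positive difference was found for 7 of the 8, and Gzmb stood at -0.43. The groups did not overlap for 2 genes that lay higher and for 1, Gzmb, that lay lower (11.4% and 12.9% of all tested genes). The NK cell markers Ncr1 and Klrb1c were under the filter value of 5.205. The 5 tested B cell genes had means from 5.93 to 6.15 and from 6.28 to 6.43, with Cd22 past the threshold (1.32) and Cd79b in the other direction (-0.39). At an unadjusted p under 0.05 by limma, 2 were higher and 1 lower (7.85% and 11% of all tested genes). The groups did not overlap for Cd22, higher, and Cd79b, lower (11.4% and 12.9% of all tested genes). Under the filter value and not tested, Ms4a1 (means 4.42 and 4.76) and Ebf1 (4.07 and 4.37) lay higher in all deficient arrays, while Cr2 and Fcer2a overlapped. Cd79a stood at 0.46, Blk at 0.19 and Pax5 at 0.02. Cd22 lay far above the list's median of 0.19, so it weighs most on the means. The differences of 4 of the 5 were positive, as were 54.0% over all tested genes. A shift of the whole list was not tested. The 3 tested erythroid and platelet genes had means from 6.08 to 6.48 and from 6.33 to 6.66, and 0 passed (1 at an unadjusted p under 0.05 by limma, beside the 11% lower and 7.85% higher of all tested genes). The part of these cells in the receptor and ligand results was not tested. In RNA of a whole sort, fewer cells with a transcript and less transcript per cell cannot be told apart.

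**Figure D1:**
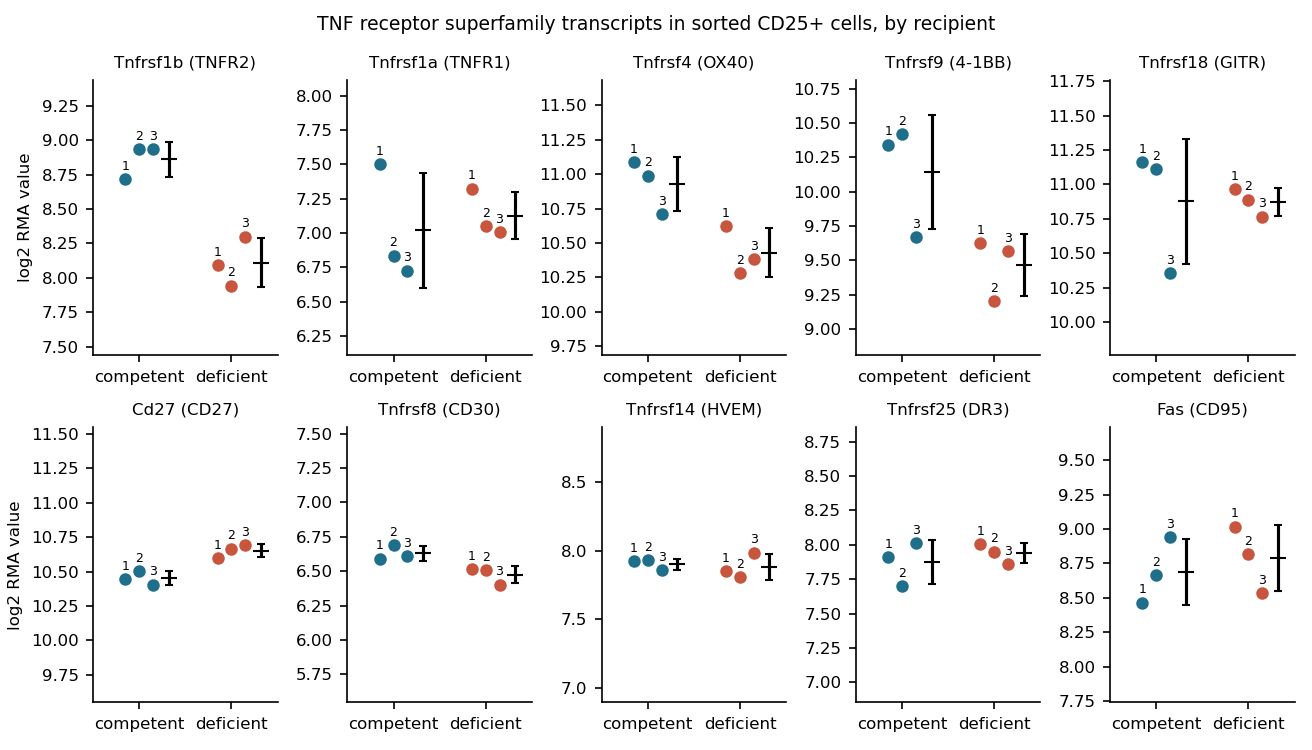
Log2 RMA values of the 10 TNF receptor family transcripts in the 3 MHC II-competent (blue) and 3 MHC II-deficient (red) arrays, numbered by replicate, with the mean and SD of each group as black bars; each panel spans 2 log2 units. The Tnfrsf1b groups are separated by 0.42, while for Tnfrsf18 the competent arrays alone spread over more than the 3 deficient ones.

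The promoters of the genes at which these results turn are shown so that their letters can be read beside the values that follow: that of Tnfrsf1b, which fell, those of Tnfrsf4 and Tnfrsf9, which lay lower without passing, and those of Tnfsf8 and Fasl, which rose. Each is the 250 bases before a start of the RefSeq gene (GRCm38.p6), written 5′ to 3′ on the strand of the gene. Tnfrsf9 has 2 annotated starts. Capitals mark matches, on either strand, to motifs of factors downstream of the TCR and of this receptor family: TGANTCA for AP-1, GGG followed by any 2 bases and TTTCC for NF-kappaB, GGAAA for the core bound by NFAT, and GCGNGGGCG for Egr factors. The NFAT core may lie inside the NF-kappaB motif.
Tnfrsf1b, chr4:145246871-145247120, minus strand: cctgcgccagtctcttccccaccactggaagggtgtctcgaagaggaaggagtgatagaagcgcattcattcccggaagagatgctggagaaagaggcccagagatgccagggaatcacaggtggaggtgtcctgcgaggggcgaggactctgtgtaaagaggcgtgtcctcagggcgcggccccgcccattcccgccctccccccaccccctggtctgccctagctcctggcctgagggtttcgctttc
Tnfrsf4, chr4:156013445-156013694, plus strand: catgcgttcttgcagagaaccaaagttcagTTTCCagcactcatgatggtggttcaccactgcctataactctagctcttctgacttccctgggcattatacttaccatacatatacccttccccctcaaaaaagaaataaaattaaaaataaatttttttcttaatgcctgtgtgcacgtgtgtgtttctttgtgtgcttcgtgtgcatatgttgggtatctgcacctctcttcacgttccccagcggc
Tnfrsf9 first start, chr4:150919905-150920154, plus strand: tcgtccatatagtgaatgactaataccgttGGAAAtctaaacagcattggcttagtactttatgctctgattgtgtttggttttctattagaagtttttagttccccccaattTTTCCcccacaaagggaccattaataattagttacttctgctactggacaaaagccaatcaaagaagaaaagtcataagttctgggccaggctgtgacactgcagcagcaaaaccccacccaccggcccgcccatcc
Tnfrsf9 second start, chr4:150927749-150927998, plus strand: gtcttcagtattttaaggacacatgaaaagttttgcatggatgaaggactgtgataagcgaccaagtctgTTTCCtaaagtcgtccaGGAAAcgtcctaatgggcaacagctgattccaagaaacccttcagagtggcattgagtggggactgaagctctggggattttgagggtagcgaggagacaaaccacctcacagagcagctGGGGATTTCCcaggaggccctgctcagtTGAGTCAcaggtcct
Tnfsf8, chr4:63861285-63861534, minus strand: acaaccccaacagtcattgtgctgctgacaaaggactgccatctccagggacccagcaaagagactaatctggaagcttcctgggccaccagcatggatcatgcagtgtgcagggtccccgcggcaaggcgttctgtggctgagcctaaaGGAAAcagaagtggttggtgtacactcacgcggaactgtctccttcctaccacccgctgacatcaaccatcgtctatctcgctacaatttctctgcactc
Fasl, chr1:161788496-161788745, minus strand: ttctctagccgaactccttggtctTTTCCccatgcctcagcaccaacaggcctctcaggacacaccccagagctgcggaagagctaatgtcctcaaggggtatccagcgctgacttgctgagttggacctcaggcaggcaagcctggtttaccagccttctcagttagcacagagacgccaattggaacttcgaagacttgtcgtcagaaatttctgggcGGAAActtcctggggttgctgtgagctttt

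The Tnfrsf1b window held 0 matches to the 4 motifs. The window of the second Tnfrsf9 start held the NF-kappaB match GGGGATTTCC, from 43 to 34 bases before that start, and the AP-1 match TGAGTCA, from 15 to 9 bases before it. In the windows of Tnfrsf4, Tnfsf8, Fasl and the first Tnfrsf9 start, only the NFAT core was found. All 10 receptors had a window, 12 in total. The AP-1 motif was found in 3 of the 12 receptor windows (Tnfrsf8, Tnfrsf9 and Fas) and in 6.75% of the 32851 windows of all genes. The NF-kappaB motif was in 2 of the 12 (Tnfrsf9 and Tnfrsf25) and in 1.41% of all windows. For the NFAT core these were 9, belonging to 7 receptors, and 55.6%, and for the Egr motif 0 and 4.70%. These matches describe letters in a short window and were not tested against the expression values.

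TNFR2 is the receptor through which TNF expands Tregs, and it responds more strongly to membrane-bound TNF than to the soluble form. Tnfrsf1b read 8.72, 8.93 and 8.93 in the competent arrays and 8.09, 7.94 and 8.30 in the deficient arrays. The groups were apart by 0.42, with competent 1 the lowest of its group and deficient 3 the highest of the other. The group values were 8.86 ± 0.13 and 8.11 ± 0.18 (SD, n = 3), and the 95% interval of the difference ran from -1.02 to -0.48. Of the tested genes, 0.751% had a more negative difference. The call ended without competent 2 (adjusted p = 0.066) and without deficient 1 (0.060), where the difference itself was -0.71 and -0.74. Over the 14 alternatives listed beforehand, its adjusted p ran from 0.0096 to 0.066. TNFR2 is also found on macrophages, whose marker values are given above, and the part of such cells in the Tnfrsf1b result was not tested.

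TNFR1, a death domain receptor, is the TNF receptor that most cell types carry. Tnfrsf1a read 7.50, 6.84 and 6.73 in the competent arrays and 7.32, 7.05 and 7.00 in the deficient arrays. The groups overlapped, and the spread came mostly from competent 1. The difference was 0.11 (SE 0.19, 95% interval -0.32 to 0.53, adjusted p = 0.82), and it was -0.04 without competent 3. The log2 distance of Tnfrsf1b from Tnfrsf1a within an array was compared between the groups, a pairing chosen after the values were seen. Rows of an array differ in their probes, so only the shift of this distance between the groups can be read. It was 1.22, 2.10 and 2.21 in the competent arrays and 0.77, 0.89 and 1.29 in the deficient arrays. The groups overlapped by competent 1, the mean shift was -0.86, and the two-sided exact permutation test gave p = 0.20 (0.20 adjusted over 2 such pairs), where 3 against 3 arrays cannot go below 0.10. With 1 array left out the shift ran from -1.17 (competent 1) to -0.67 (competent 3).

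OX40, 4-1BB and GITR are the costimulatory receptors that TCR signals raise on T cells. Tnfrsf4 read 11.09, 10.99 and 10.71 in the competent arrays and 10.62, 10.28 and 10.38 in the deficient arrays. All deficient arrays lay under all competent ones, but competent 3 and deficient 1 were only 0.09 apart. The difference of -0.50 (SE 0.13, 95% interval -0.80 to -0.20) corresponds to 1.41-fold and did not pass (adjusted p = 0.077). It passed without competent 3 (-0.61, adjusted p = 0.033), with array weights (0.039) and with a trended robust prior (0.039), and its adjusted p was as high as 0.24 over the alternatives.

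Tnfrsf9 was also lower in all deficient arrays, with a wider spread. The NF-kappaB and AP-1 matches before its second start, printed above, were not tested against these values. Tnfrsf9 read 10.34, 10.42 and 9.67 in the competent arrays and 9.62, 9.21 and 9.57 in the deficient arrays. Competent 3 lay close to the deficient arrays, 0.05 above the highest of them. The difference was -0.68 (SE 0.20, 95% interval -1.12 to -0.24), or 1.60-fold, and did not pass (adjusted p = 0.10). Without competent 3 it was -0.91 with an adjusted p of 0.012, and it passed with array weights as well (-0.77, 0.039). Without competent 2 it was -0.54, and the highest adjusted p with 1 array left out was 0.30.

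GITR stands next to OX40 in the genome, with 0 protein-coding genes between Tnfrsf4 and Tnfrsf18 on chromosome 4 in the RefSeq annotation, and the difference of its transcript was near 0. Tnfrsf18 read 11.16, 11.11 and 10.36 in the competent arrays and 10.96, 10.89 and 10.76 in the deficient arrays. Competent 3 was again the low one, here under all 3 deficient arrays. The difference was -0.00 (SE 0.19, 95% interval -0.44 to 0.43, adjusted p = 0.99). It was -0.26 without competent 3 and 0.14 without competent 1, and quantile normalization turned its sign (0.07). Within an array Tnfrsf4 lay -0.07, -0.12 and 0.35 from Tnfrsf18 in the competent and -0.34, -0.61 and -0.38 in the deficient arrays. These groups did not overlap, and the mean shift of -0.50 reached the smallest value that the two-sided exact permutation test allows (p = 0.10, 0.20 adjusted over the 2 pairs, both chosen after the values were seen). Without competent 3 the shift was -0.35.

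The deviations of competent 3 from its group mean were -0.22 for Tnfrsf4, -0.47 for Tnfrsf9 and -0.52 for Tnfrsf18, and 0.07 for Tnfrsf1b. The same array had the lowest myeloid mean (6.03), and over all tested genes its root mean square deviation from the group mean was 0.18, against 0.12 to 0.16 in the other arrays. The part of these differences between arrays in the results for OX40, 4-1BB and GITR was not tested beyond the values without competent 3.

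CD27, a costimulatory receptor that naive and resting T cells carry and that binds CD70, was the 1 receptor whose groups lay apart in the higher direction. Cd27 read 10.44, 10.50 and 10.40 in the competent arrays and 10.60, 10.67 and 10.69 in the deficient arrays. Both groups were tight, with an SD of 0.05 each and a gap of 0.09. The difference of 0.20 (SE 0.09, 95% interval -0.00 to 0.41) did not pass (adjusted p = 0.27), and its adjusted p ran from 0.088 to 0.50 over the alternatives.

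Neither CD30 nor HVEM passed. Tnfrsf8, whose receptor is induced on activated lymphocytes, read 6.59, 6.69 and 6.61 in the competent arrays and 6.52, 6.51 and 6.40 in the deficient arrays. These groups were 0.07 apart, with a difference of -0.15 (SE 0.09, 95% interval -0.36 to 0.05, adjusted p = 0.41). Tnfrsf8 is the next protein-coding gene to Tnfrsf1b on chromosome 4. Tnfrsf14, whose product binds LIGHT and the inhibitory receptor BTLA, read 7.92, 7.93 and 7.86 in the competent arrays and 7.85, 7.81 and 7.99 in the deficient arrays. Its groups overlapped, and the difference of -0.02 (SE 0.09, 95% interval -0.23 to 0.19, adjusted p = 0.93) turned its sign under quantile normalization (0.03).

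DR3 and Fas carry death domains. DR3 binds TL1A and is known for expanding Tregs when engaged, and Fas starts apoptosis when bound by Fas ligand. Tnfrsf25 read 7.91, 7.70 and 8.01 in the competent arrays and 8.01, 7.95 and 7.86 in the deficient arrays. Fas read 8.46, 8.67 and 8.94 in the competent arrays and 9.02, 8.82 and 8.53 in the deficient arrays. Both genes overlapped between the groups. The differences were 0.07 (SE 0.11, 95% interval -0.18 to 0.31, adjusted p = 0.80) for Tnfrsf25 and 0.10 (SE 0.15, 95% interval -0.25 to 0.45, adjusted p = 0.79) for Fas. That of Tnfrsf25 was -0.02 without competent 2, and that of Fas -0.02 without competent 1 or without deficient 1.

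**Figure D2:**
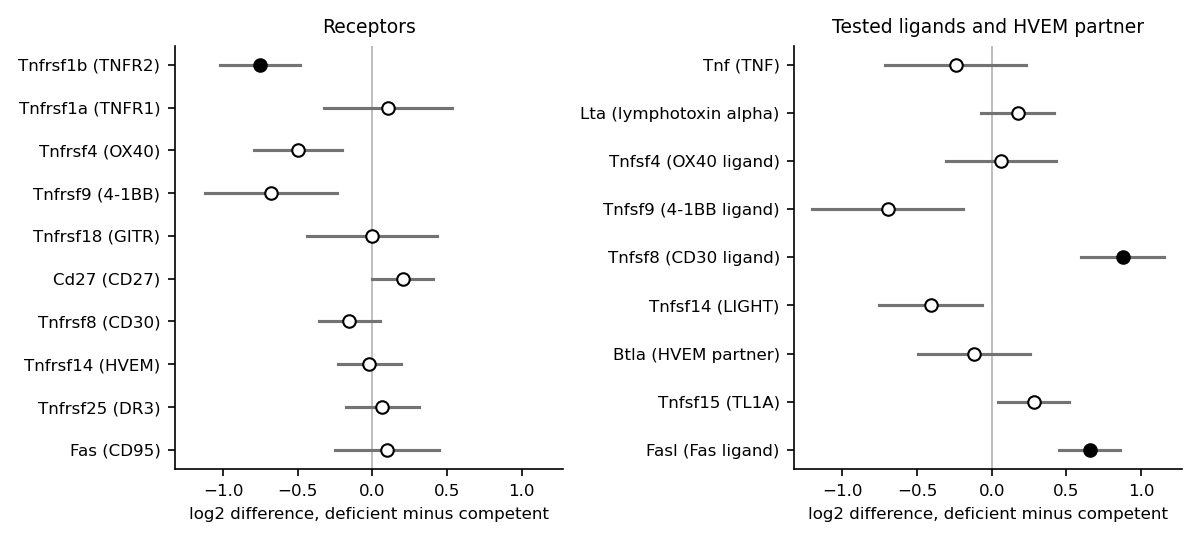
Log2 differences, MHC II-deficient minus MHC II-competent, for the 10 receptors (left) and their tested cognate ligands with Btla (right), with 95% intervals from limma. Filled points had an adjusted p under 0.05. Tnfrsf1b at -0.75 is the filled point on the left, and Tnfsf8 at 0.88 and Fasl at 0.66 are those on the right; the signs of Tnfrsf18 and Tnfrsf14 turn under quantile normalization.

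Among the ligands and partners of the family, 15 were tested, of which 2 rose and 0 fell (1.34% and 2.03% of all tested genes), with 3 lower and 3 higher at an unadjusted p under 0.05 by limma (11% and 7.85% of all tested genes). The list's median difference was -0.10, beside 0.02 over all tested genes. The gene of CD30 ligand, which activated T cells display, had the larger increase. Tnfsf8 read 8.04, 7.85 and 8.22 in the competent arrays and 9.01, 8.75 and 8.99 in the deficient arrays. The groups were 0.52 apart, and the difference was 0.88 (SE 0.12, 95% interval 0.60 to 1.16, adjusted p = 0.0071). It passed without each single array (highest adjusted p 0.040). The part of other cells, whose marker values are given above, in the Tnfsf8 difference was not tested.

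Fas ligand is the death ligand of cytotoxic and activated T cells. Fasl read 5.53, 5.60 and 5.65 in the competent arrays and 6.21, 6.29 and 6.26 in the deficient arrays. The groups were 0.56 apart with little spread in either, and the difference was 0.66 (SE 0.09, 95% interval 0.45 to 0.86, adjusted p = 0.0066), which passed without each single array (highest adjusted p 0.035). The competent mean of 5.60 was near the filter value of 5.205, so the size of the difference is uncertain. NK cells and CD8 T cells express Fas ligand too. Beside this result stand the higher means of the CD8 T and NK list in the deficient arrays. Its 8 tested genes held 7 with a positive difference, as had 54.0% of all tested genes. Klrd1 (2.66) passed. Klrk1 (0.66), Nkg7 (0.41), Eomes (0.32), Cd8a (0.32), Cd8b1 (0.26) and Prf1 (0.14) did not, nor did Gzmb (-0.43), the 1 in the other direction. Ncr1 and Klrb1c were under the filter value. The part of such cells in the Fasl difference was not tested.

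The ligand of 4-1BB lay in the same direction as its receptor without passing. Tnfsf9 read 5.85, 6.76 and 5.84 in the competent arrays and 5.62, 5.30 and 5.44 in the deficient arrays. The groups did not overlap, but competent 2 stood apart from the rest, and without it the difference went from -0.70 (SE 0.23, adjusted p = 0.14) to -0.39. Tnf, which encodes the ligand of TNFR1 and TNFR2, read 8.33, 8.42 and 7.50 in the competent arrays and 7.78, 7.90 and 7.85 in the deficient arrays. Its low array was competent 3, as for OX40, 4-1BB and GITR. The difference of -0.24 (SE 0.21, adjusted p = 0.59) was -0.53 without that array, where it passed (adjusted p = 0.026), and -0.07 without competent 2 (adjusted p = 0.93).

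The other cognate ligands did not pass. The difference was 0.17 (SE 0.11) for Lta, the lymphotoxin alpha gene, 0.06 (SE 0.16) for Tnfsf4, which encodes OX40 ligand, -0.41 (SE 0.15) for Tnfsf14, which encodes LIGHT, 0.28 (SE 0.11) for Tnfsf15, which encodes TL1A, and -0.12 (SE 0.17) for Btla. The lowest adjusted p of these 5 genes was 0.19. The Tnfsf4 means of 5.34 in the competent and 5.40 in the deficient group were near the filter value. With 1 array left out the difference ran from -0.31 to -0.01 for Btla, from 0.10 to 0.25 for Lta and from -0.12 to 0.23 for Tnfsf4. The genes of GITR ligand and of CD70, the ligand of CD27, had means over the 6 arrays under the filter value and were not tested. Tnfsf18 stood at 5.10 ± 0.25 in the competent and 5.21 ± 0.08 (SD, n = 3) in the deficient group, and Cd70 at 4.74 ± 0.04 and 4.71 ± 0.22.

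**Figure D3:**
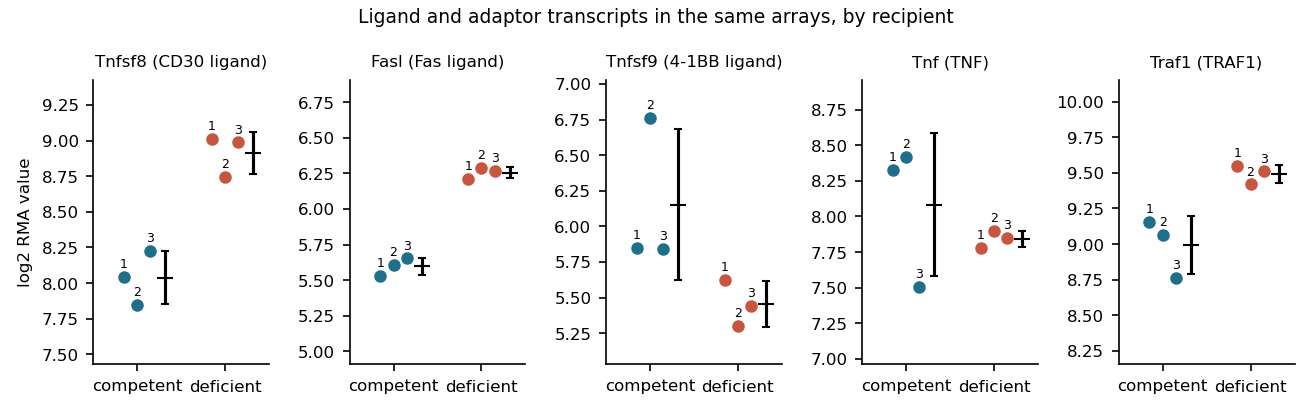
Log2 RMA values of 4 ligand genes and the adaptor gene Traf1 in the 3 MHC II-competent (blue) and 3 MHC II-deficient (red) arrays, numbered by replicate, with the mean and SD of each group as black bars. The Tnfsf8 and Fasl groups lie 0.52 and 0.56 apart, and competent 3 is the low array for Tnf at 7.50.

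Other receptors of the family, 16 of which were tested, held 0 genes past the threshold (1 lower and 2 higher at an unadjusted p under 0.05 by limma, beside 11% and 7.85% of all tested genes), with a median difference of 0.04. Their differences lay between -0.28 and 0.49. The highest was that of Tnfrsf26 (SE 0.18, adjusted p = 0.19), named after its values were seen. Below the receptors, 0 of 25 tested adaptor and signalling genes passed (1 lower and 4 higher at an unadjusted p under 0.05 by limma, against the same shares), with a median of 0.05. Traf1, an adaptor of OX40, 4-1BB and TNFR2 that NF-kappaB itself induces, came nearest and was named for that reason. Traf1 read 9.16, 9.06 and 8.76 in the competent arrays and 9.55, 9.42 and 9.51 in the deficient arrays. The groups were 0.26 apart, with a difference of 0.50 (SE 0.12, adjusted p = 0.056), and it passed under quantile normalization (0.58, adjusted p = 0.025), with a filter at the median (0.049) and with a trended robust prior (0.043). It was 0.44 under median centring (adjusted p = 0.11), and its adjusted p was as high as 0.19 with 1 array left out. Among the others, Rnf31, a subunit of the linear ubiquitin ligase, stood at 0.38 (SE 0.11, adjusted p = 0.095) and Siva1, whose product binds CD27 and GITR, at -0.32 (SE 0.10, adjusted p = 0.11). Both were named after their values were seen.

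The NF-kappaB list had 13 tested genes, of which 0 passed (1 lower and 1 higher at an unadjusted p under 0.05 by limma, beside 11% and 7.85% of all tested genes). The median was 0.12, and 11 of the 13 had a positive difference, as had 54.0% of all tested genes. Tnfaip3, which encodes the feedback inhibitor A20, stood at 0.35 (SE 0.11, adjusted p = 0.13), and Bcl2l1, the gene of the survival protein Bcl-xL, at -0.44 (SE 0.12, adjusted p = 0.078). These genes were named after their values were seen.

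The genes whose values over the 6 arrays were most like those of Tnfrsf1b, once each was centred on its own mean, were Osbpl3, Cenpe and Akr1e1, with a root mean square difference of 0.04, 0.06 and 0.06 log2 units. Osbpl3 encodes an oxysterol-binding protein family member, Cenpe a kinetochore motor of mitosis and Akr1e1 an aldo-keto reductase. Their differences between the groups were -0.74, -0.65 and -0.76. The likeness rests on 6 arrays that share the difference between the groups, and it is a description.

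**Figure D4:**
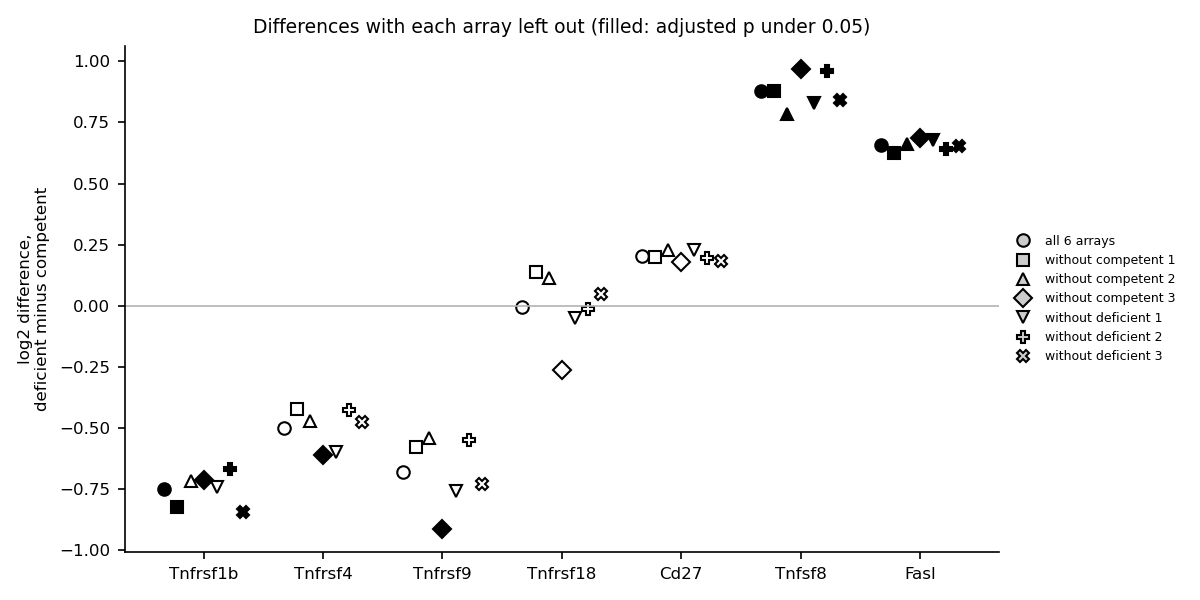
Log2 differences, MHC II-deficient minus MHC II-competent, of 5 receptors and 2 ligands with all 6 arrays and with each array left out; filled symbols had an adjusted p under 0.05. Tnfsf8 and Fasl are filled throughout, Tnfrsf1b is open without competent 2 and without deficient 1, and Tnfrsf4 and Tnfrsf9 are filled without competent 3 only; Tnfrsf18 crosses 0, as it does under quantile normalization.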

How the data were processed

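Total RNA (100 ng, per the labels' protocols) was labelled as biotinylated cDNA for single-colour Affymetrix whole-transcript arrays. The deposited log2 values were made by the authors with the R package affy and RMA, per the submitters' processing notes. Versions, annotation and genome build are not given in the sources used here, and the log base was taken as 2, as RMA gives. Scanner files were not used here.

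Of 28101 rows, 21640 carried 1 platform symbol, updated by Entrez identifier through a RefSeq table of GRCm38.p6, 1321 several and 5140 none. Genes with several rows were represented by the row with the highest mean, and genes with a mean under 5.205, the 25th percentile of gene rows, were left out (4900 of 19937). limma 3.58.1 in R 4.3.3 (lmFit, eBayes, two-sided, no covariate) had 4 residual degrees of freedom (9.40 after adding those of the prior). The fit was first tested on simulated data. Levels were not compared between rows of different genes, apart from the within-array distances given above, of which only the shift between the groups was read. Some listed genes are not analysed here.

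Members, lists and motifs were chosen with earlier results of these data known. All 10 receptors, their cognate ligands, list members past the threshold and the 3 genes most like a called receptor were named by rule; others are said to have been chosen later. The alternatives were quantile normalization, median centring, other filters, the mean of a gene's rows, a trended robust prior, array weights, the replicate number as a block and each array left out.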

Additional observations from a re-analysis of the deposited data

How the results depend on the processing

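Tnfrsf1b stayed lower under every alternative tried, and its call ended without competent 2 and without deficient 1; with 1 array left out its difference ran from -0.84 to -0.67. The count of lower receptors was 2 with a trended robust prior (Tnfrsf1b and Tnfrsf4), 3 with array weights (Tnfrsf4 and Tnfrsf9 added), 0 to 3 with 1 array left out and 2 without both arrays numbered 3, an alternative added after seeing the data (Tnfrsf1b and Tnfrsf9). The count over all genes ran from 159 to 708 with 1 array left out. Tnfrsf4 stood at -0.50 with the trended robust prior, -0.56 with array weights and -0.61 to -0.42 with 1 array left out, and Tnfrsf9 at -0.77 with array weights, -0.91 to -0.54 with 1 array left out and -0.97 without both arrays numbered 3. Signs turned under quantile normalization for Tnfrsf18 (0.065) and Tnfrsf14 (0.026), and with array weights for Tnfrsf1a (-0.050). With 1 array left out the difference ran from -0.26 to 0.14 for Tnfrsf18, -0.041 to 0.34 for Tnfrsf1a, -0.021 to 0.14 for Tnfrsf25, -0.073 to 0.017 for Tnfrsf14, -0.016 to 0.23 for Fas, -0.12 to 0.23 for Tnfsf4 and -0.53 to -0.074 for Tnf. The cause of these changes was not tested. Fasl was not among the genes tested with a filter at the median, and passed under the other alternatives, as did Tnfsf8 under all. The members have 1 row each, so the choice of row moved no difference of theirs. With the replicate number as a block, 564 genes passed over all, Tnfrsf1b remained the 1 receptor past the threshold (adjusted p = 0.0096), Tnfrsf4 stood at 0.054 and Tnfrsf9 at 0.072, and Tnfrsf26 passed besides Tnfsf8 and Fasl (0.046). The deviations of same-numbered arrays from their group means correlated at -0.02, -0.14 and 0.07, so the numbers were not taken to pair the arrays. Precision is limited by 3 arrays per group, and signal over background could not be judged without detection calls.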
